A study of Mus musculus with 6 samples.

Results

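The genes described here make up glycolysis, the pentose phosphate pathway and their close regulators, 35 genes chosen by name. A member counted where a probe set of the array carried exactly its symbol and no other, and 32 of the 35 were found, out of 18194 genes with such a probe set. Gpi1, Eno1 and G6pdx had none and were not analysed here. Each gene was read by its brightest probe set over the 6 arrays. Of the 32, 31 lay above the 40th percentile of their array on at least 3 of 6 arrays and were tested, among 12835 genes tested in all. The neuronal enolase gene Eno2 did not pass, with all 6 arrays below that percentile (3.72 to 4.19 log2 intensity in ICN2-positive cells and 4.24 to 4.42 in ICN2-negative cells).

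The cells were bone marrow cells of mice that stained for cKit and for neither Sca1 nor lineage markers, named myeloerythroid progenitors by the submitters. The ICN2-positive mice carried Rosa-lsl-ICN2 and Mx1-cre+, so that cre removes a stop cassette ahead of ICN2, the constantly active intracellular part of Notch2, in the Rosa26 locus. The ICN2-negative mice were littermates with Mx1-cre+ alone. Both genotypes were 6 weeks old when injected 3 times with polyIC (20 mcg per g of body weight), which induces interferon and so the Mx1 promoter in blood cells and other tissues, and cells were taken 1 week after the last dose. The ICN2-positive samples were all male and the ICN2-negative samples all female, so the effect of genotype cannot be told apart from that of sex. There were 3 arrays per genotype. Nothing states that replicates came from separate mice, so p-values set each difference only against the scatter among these samples, and that scatter may be technical.

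Glycolysis splits glucose to pyruvate in the cytosol, with small yields of ATP and NADH, and lactate dehydrogenase turns pyruvate to lactate so that NADH is spent and the path can run on. The pentose phosphate pathway branches off after hexokinase and supplies NADPH and ribose for nucleotides. Several steps have more than 1 isozyme, and blood lineages use different ones. Hypoxia-inducible factor, of which Hif1a encodes the oxygen-regulated subunit, switches on transporters, glycolytic enzymes and pyruvate dehydrogenase kinases when oxygen is low, as in parts of the bone marrow.

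Of 31 members, Slc2a3, a glucose carrier gene, rose and Pfkfb4, a regulator of phosphofructokinase, fell in ICN2-positive cells (limma, adjusted p under 0.05), and 29 did not pass. That is 3.23% of members in each direction, against 2.58% of all genes tested called higher and 1.77% called lower (4.35% in all), so the members' counts lie near the background. The 3 values of each genotype did not overlap for 18 members (58.1%), against 37.5% of all genes tested. Of these, 13 members (41.9%) were lower in ICN2-positive cells, against 16.9% of all genes, and 5 (16.1%) were higher, against 20.6%. The median difference over the members was -0.13 on the log2 scale, against 0.017 over all genes tested. For 9 of the 31 the difference was within 0.1 in either direction. These were the phosphofructokinase genes Pfkm and Pfkp, Pfkfb2, Aldoa, Gapdh, Pgk1, Pdk3, Tkt and Taldo1, while other enzymes of the same paths, among them Pgam1, Pkm, Ldha and Pgd, differed without overlap. Hk3, Bnip3 and Pfkfb4 had means at least 2-fold lower in ICN2-positive cells, and no member was as much higher.

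As a check of the labels, the Notch target gene Hes1 rose by 1.82 ± 0.15 in ICN2-positive cells (adjusted p = 0.00723 in limma), while Notch2 itself differed by 0.074 ± 0.065; whether its probe set reads the transgene is not known here. ICN2-positive replicate 1 stood apart from replicates 2 and 3, as across the whole array (correlation across probe sets of 0.984 and 0.988 to them, against 0.995 between them and 0.994 to 0.995 among ICN2-negative arrays). In 12 of the 13 members with lower, non-overlapping values it was the lowest array, and the members' median lay at -0.23 in replicate 1, -0.18 in replicate 2 and -0.12 in replicate 3 from the ICN2-negative mean. Without replicate 1, 4 members were called lower (Slc2a1, Hk3, Pfkfb4 and Bnip3, 12.9% of members against 3.08% of all genes) and 1 higher (Ldhb, 3.23% against 2.91%). The number of members called was 0 to 5 over the fits that left out 1 array each, where 0.771% to 5.98% of all genes were called.

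**Figure D1:**
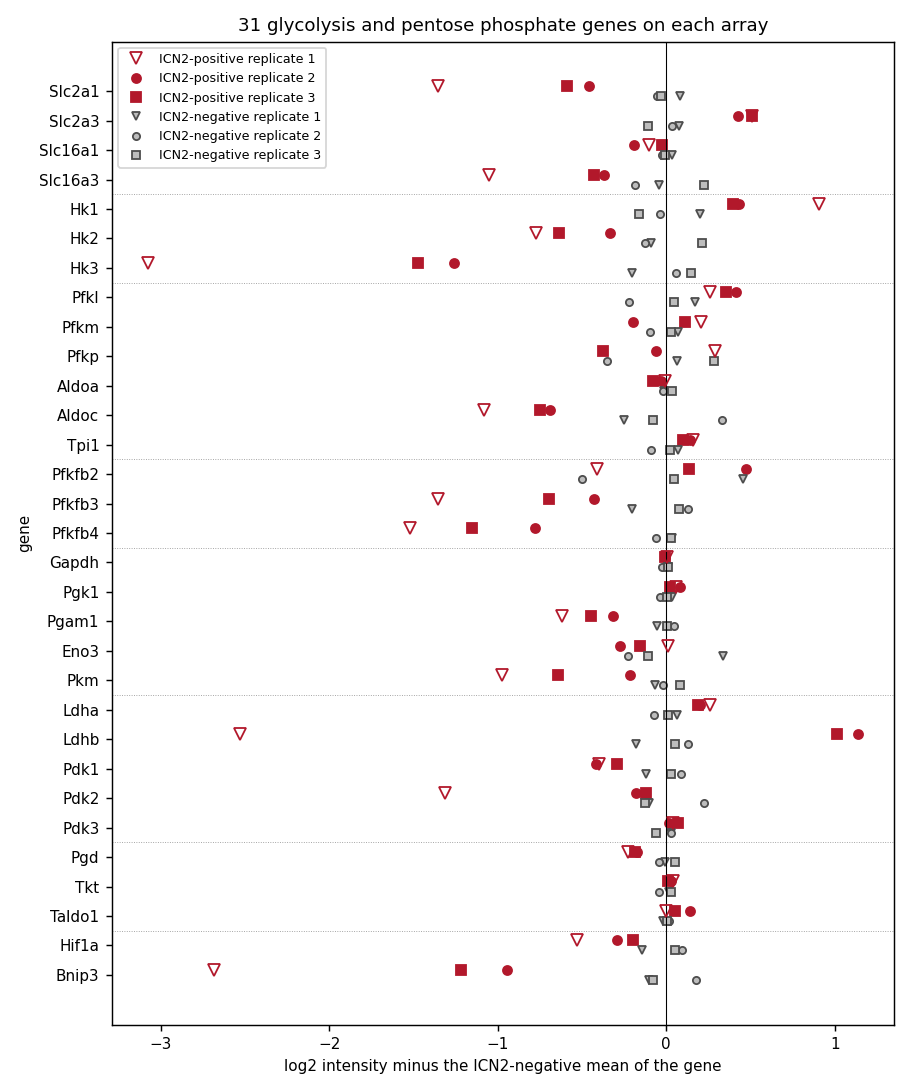
Log2 intensity of each of the 31 tested genes on each array, minus the gene's mean over the 3 ICN2-negative arrays (horizontal axis), with genes grouped by role down the page. Red symbols are ICN2-positive arrays (open triangle, replicate 1) and grey symbols ICN2-negative arrays. Hk3, Bnip3 and Ldhb show the widest spread among the red symbols, and Gapdh and Tkt the narrowest.

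Cell type markers differed as well. Over all genes tested, 2.58% were called higher and 1.77% lower in limma, and 27.4% had an unadjusted p under 0.05. Without overlap, 16.9% of all genes were lower and 20.6% higher. All 11 tested genes of a granulocyte-monocyte progenitor list, among them Mpo, Elane and Csf1r, had lower values without overlap in ICN2-positive cells, and none was called in limma (3 at an unadjusted p under 0.05). Their median lay at -3.40 in ICN2-positive replicate 1, -0.52 in replicate 2 and -0.76 in replicate 3, and their mean log2 intensity was 8.96 to 11.86 in ICN2-positive arrays and 12.52 to 12.80 in ICN2-negative arrays. Each of the 11 stayed above the 40th percentile on every array. Of 8 tested macrophage and dendritic markers, 6 were lower without overlap and 1 of them, the cytokine receptor gene Flt3, was called. Of 10 mast cell and basophil markers, 4 rose, all protease genes (Mcpt1, Mcpt2, Mcpt4 and Gzmb). Mcpt1, Mcpt2 and Mcpt4 lay below the 40th percentile on all ICN2-negative arrays, so they passed the filter only through the ICN2-positive group. For 4 others of that list the ICN2-positive mean was the lower, with overlapping groups and differences of -0.39 for Mcpt8, -0.32 for Cpa3, -0.027 for Ms4a2 and -1.35 for Fcer1a. The mean of the list was 8.50 to 10.24 in ICN2-positive arrays and 7.25 to 7.45 in ICN2-negative arrays. Of 5 NK cell markers, 2 rose, Gzma by 5.94 and Gzmb, which stands in both lists, by 5.07. All 6 tested T cell markers had higher means in ICN2-positive cells, none called in limma (3 at an unadjusted p under 0.05), with a list mean of 6.42 to 7.84 in ICN2-positive arrays and 5.31 to 6.38 in ICN2-negative arrays. No B cell marker was called among 6 tested (4 at an unadjusted p under 0.05), with 6.10 to 7.07 in ICN2-positive arrays and 7.34 to 10.14 in ICN2-negative arrays. For 9 tested erythroid markers, none called (0 at an unadjusted p under 0.05), the mean was 11.96 to 12.39 in ICN2-positive arrays and 12.18 to 12.30 in ICN2-negative arrays. Of 6 tested megakaryocyte markers none was called, and Pf4 alone differed without overlap (-2.94 ± 1.00, adjusted p = 0.138 in limma). Kit itself, used in the sort, read 10.15, 10.70 and 10.86 in ICN2-positive cells and 10.46, 10.50 and 10.38 in ICN2-negative cells. Of 5 genes listed for the sorted population none was called, and Cd34 alone differed without overlap. Cd34 read 9.50, 11.99 and 11.60 in ICN2-positive cells and 12.44, 12.38 and 12.31 in ICN2-negative cells (-1.35 ± 0.65, adjusted p = 0.246). Of the genes sorted against, Itgam and Ms4a1 lay below the 40th percentile on all arrays. Cd8a lay above it on all 6, Cd4 on the 3 ICN2-negative arrays alone, and Cd3e on 3 ICN2-positive and 2 ICN2-negative arrays. Cd3e read 7.17, 7.52 and 6.16 in ICN2-positive cells and 6.14, 5.40 and 5.27 in ICN2-negative cells, a difference of 1.35 (adjusted p = 0.116 in limma). Ly6a, which encodes Sca1, was not analysed here. The part of these cell types in the values below was not tested. In sorted cells taken as a bulk, fewer cells of a type and less RNA per cell cannot be told apart.

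**Figure D2:**
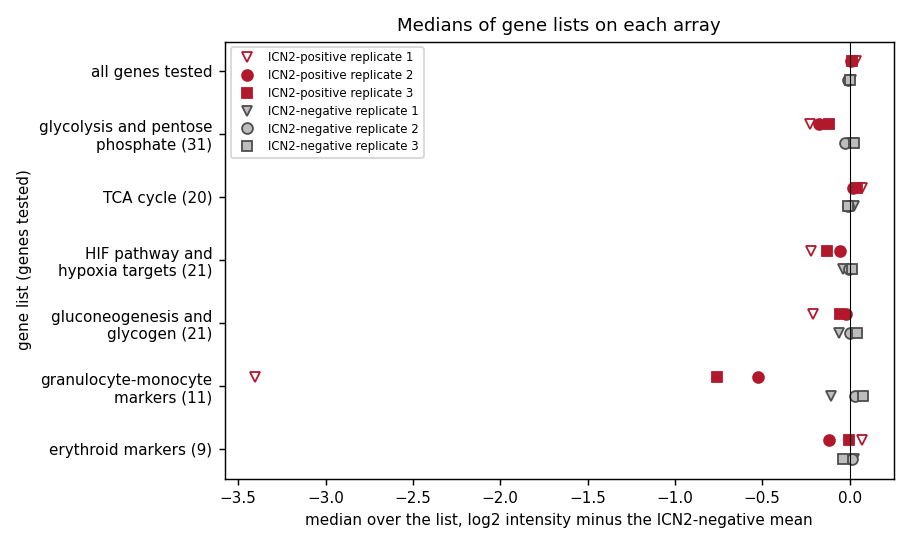
Median over each gene list of log2 intensity minus the ICN2-negative mean of each gene (horizontal axis), on each of the 6 arrays; the number of genes tested is in brackets. The granulocyte-monocyte markers reach -3.40 in ICN2-positive replicate 1, while the medians of the TCA cycle genes stay within 0.1 of 0 on all arrays.

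Promoters are shown for the members whose differences the text turns on, with the core of the hypoxia response element (ACGTG or GCGTG, either strand) in capitals. They are RefSeq windows on GRCm38.p6 of 300 bases, most of them upstream of a start site, and 31 of the 32 members had at least 1. Slc2a3 had none in the table. The first is Pfkfb4, the member that fell, at chr9:108991652-108991951 on the plus strand, at a start site inside the annotated gene. The next are Hk3 (chr13:55021336-55021635, minus), Bnip3 (chr7:138909457-138909756, minus) and Slc2a1 (chr4:119108495-119108794, plus), which were called lower without ICN2-positive replicate 1. The last is the upstream window of Ldha (chr7:46845554-46845853, plus), which is shown as a member with several matches whose values were higher.
Pfkfb4: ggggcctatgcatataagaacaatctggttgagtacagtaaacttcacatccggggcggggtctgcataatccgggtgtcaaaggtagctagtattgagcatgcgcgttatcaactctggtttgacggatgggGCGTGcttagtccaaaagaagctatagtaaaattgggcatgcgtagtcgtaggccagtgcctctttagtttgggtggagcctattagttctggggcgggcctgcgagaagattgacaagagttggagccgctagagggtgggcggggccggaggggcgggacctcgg
Hk3: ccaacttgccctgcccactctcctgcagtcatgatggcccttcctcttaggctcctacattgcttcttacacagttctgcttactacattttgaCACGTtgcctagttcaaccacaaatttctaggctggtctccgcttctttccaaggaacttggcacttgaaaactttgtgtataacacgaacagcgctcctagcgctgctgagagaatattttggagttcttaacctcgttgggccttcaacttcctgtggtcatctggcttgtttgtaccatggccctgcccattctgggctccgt
Bnip3: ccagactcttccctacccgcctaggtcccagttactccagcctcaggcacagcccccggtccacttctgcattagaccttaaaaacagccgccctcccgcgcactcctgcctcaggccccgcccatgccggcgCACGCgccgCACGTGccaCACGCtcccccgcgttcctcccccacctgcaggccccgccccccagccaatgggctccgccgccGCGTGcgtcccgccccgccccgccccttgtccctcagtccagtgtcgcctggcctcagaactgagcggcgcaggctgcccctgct
Slc2a1: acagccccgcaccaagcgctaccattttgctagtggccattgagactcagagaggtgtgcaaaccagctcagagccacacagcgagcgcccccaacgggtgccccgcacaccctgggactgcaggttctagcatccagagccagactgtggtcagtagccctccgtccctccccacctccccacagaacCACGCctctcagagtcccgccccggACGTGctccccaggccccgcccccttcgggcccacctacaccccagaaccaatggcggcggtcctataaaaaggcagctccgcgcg
Ldha: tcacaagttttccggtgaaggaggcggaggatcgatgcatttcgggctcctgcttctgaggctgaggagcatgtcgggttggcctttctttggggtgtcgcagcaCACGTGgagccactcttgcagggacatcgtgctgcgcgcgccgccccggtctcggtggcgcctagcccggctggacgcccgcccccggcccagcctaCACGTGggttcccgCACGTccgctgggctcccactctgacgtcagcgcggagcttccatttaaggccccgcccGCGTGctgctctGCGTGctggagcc

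A match to either core was found for 29 of 31 members with a window (93.5%), against 65.7% of the genes tested on the array and 46.7% of all genes in the table. ACGTG alone was found for 20 members (64.5%), against 28.8% of the genes tested. The E-box CACGTG, which contains ACGTG on both strands, was found for 8 members (25.8%, against 11.4%). The core bound by RBPJ, the DNA-binding partner of Notch (GTGGGAA), was found for 1 member, Aldoc (3.23%, against 7.18%). A gene with several windows counted once where any window held the motif, which favours genes with more windows. Members had 46 windows for 31 genes, and tested genes had 13166 for 10356. By window, either core was found in 80.4% for members against 60.1% for tested genes. Base composition was not matched between the sets. With a match in 29 of 31 members, its presence could not tell members with lower values from members with higher values. The part of the hypoxia core in the differences was not tested.

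Among the transporters, the glucose carrier gene Slc2a3 was higher and Slc2a1 lower in ICN2-positive cells, and Slc2a3 alone passed the test. Slc2a3 encodes GLUT3, a carrier of high affinity. Its log2 intensity was 12.33, 12.24 and 12.33 in ICN2-positive cells and 11.89, 11.85 and 11.71 in ICN2-negative cells. All ICN2-positive values lay above all ICN2-negative values, and ICN2-positive replicate 1 lay with its group. Slc2a3 rose 1.40-fold, a log2 difference of 0.48 ± 0.08 (SE, 3 arrays per genotype; adjusted p = 0.0336 in limma). The call was lost without any single array (adjusted p = 0.0507 to 0.123) and with the mean of its 4 probe sets, of which the 2 dimmest differed by 0.10 and 0.17 (adjusted p = 0.0656).

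Slc2a1, which encodes GLUT1, the carrier of red cell precursors and of many dividing cells, read 10.07, 10.96 and 10.83 in ICN2-positive cells and 11.50, 11.37 and 11.39 in ICN2-negative cells. The groups did not overlap, and replicate 1 was the lowest of the ICN2-positive arrays. The difference was -0.80 ± 0.24 (adjusted p = 0.114 in limma) and -0.52 ± 0.08 without ICN2-positive replicate 1 (adjusted p = 0.0373). Its 3 probe sets differed by -0.80 to -0.73. Lactate leaves cells through monocarboxylate transporters. Slc16a3, the exporter typical of strongly glycolytic cells, differed by -0.62 ± 0.22 (adjusted p = 0.144), with 6.97 to 7.65 in ICN2-positive cells against 7.83 to 8.25 in ICN2-negative cells. Slc16a1, the widely used monocarboxylate transporter, differed by -0.11 ± 0.07 and its groups overlapped.

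The 3 hexokinase genes, which encode the enzymes that trap glucose in the cell by phosphorylating it, did not differ in the same direction, and none passed. Hk1, the hexokinase of most tissues and of red cells, read 12.29, 11.81 and 11.77 in ICN2-positive cells and 11.58, 11.34 and 11.21 in ICN2-negative cells. Its values were higher without overlap, at 0.58 ± 0.17 (adjusted p = 0.113 in limma), and its dimmer probe set differed by 0.77. Hk2, the inducible form, read 10.82, 11.26 and 10.95 in ICN2-positive cells and 11.50, 11.47 and 11.80 in ICN2-negative cells. Its values were lower without overlap, at -0.58 ± 0.15 (adjusted p = 0.0893).

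Hk3, a hexokinase found mainly in myeloid cells, had the most negative difference of all members. It read 8.00, 9.82 and 9.60 in ICN2-positive cells and 10.87, 11.13 and 11.22 in ICN2-negative cells. All ICN2-positive arrays lay below all ICN2-negative arrays, with replicate 1 far below the rest. The difference was -1.94 ± 0.49 (3.83-fold lower, adjusted p = 0.0859), and its second probe set differed by -2.07. Without replicate 1 it was -1.37 ± 0.14 (adjusted p = 0.014 in limma). The granulocyte-monocyte markers given above took the same order over the ICN2-positive arrays.

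**Figure D3:**
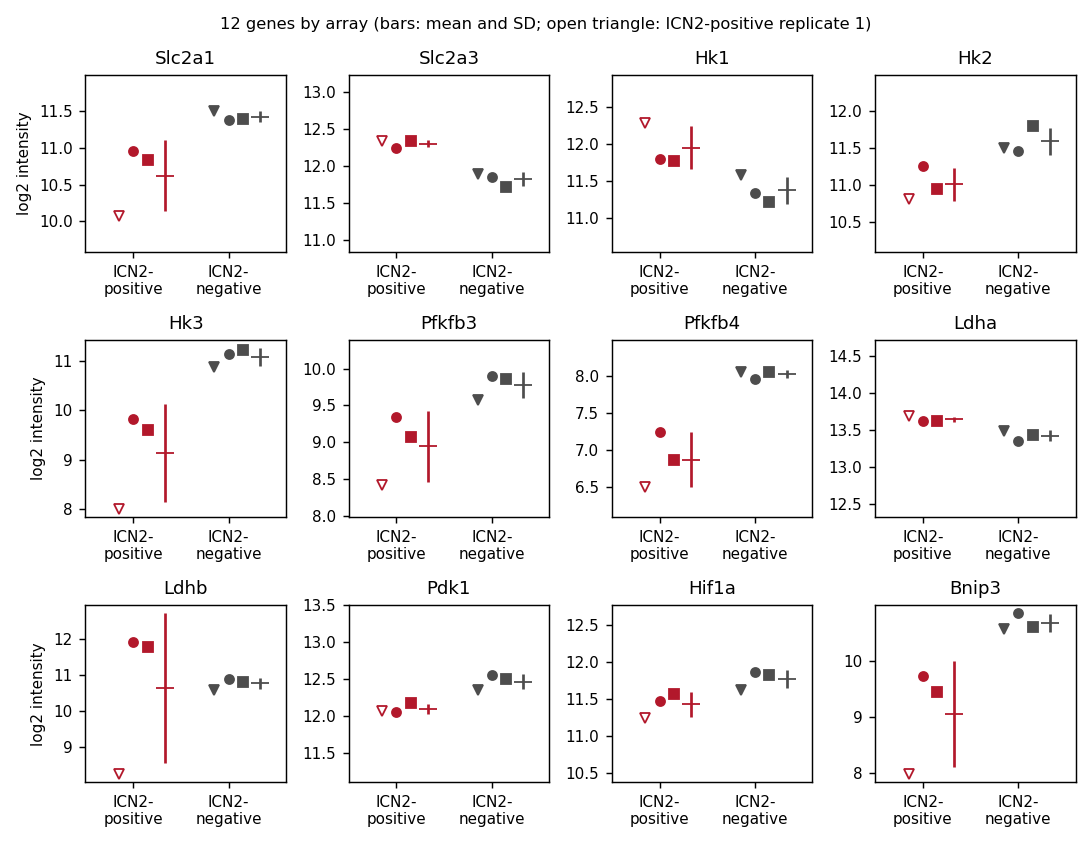
Log2 intensity (vertical axis, a range of its own for each gene) of 12 genes on the 3 ICN2-positive arrays (red, open triangle for replicate 1) and the 3 ICN2-negative arrays (grey); the bar beside each group is its mean and SD. Slc2a3, Hk1 and Ldha lie higher in ICN2-positive cells, Slc2a1, Hk2, Hk3, Pfkfb3, Pfkfb4, Pdk1, Hif1a and Bnip3 lie lower, and Ldhb splits within the ICN2-positive group.

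Phosphofructokinase commits sugar to glycolysis, and a sugar phosphate that activates it is made and removed by the bifunctional Pfkfb enzymes. Pfkfb4, an inducible form, read 6.51, 7.25 and 6.87 in ICN2-positive cells and 8.06, 7.96 and 8.06 in ICN2-negative cells. All ICN2-positive arrays lay below all ICN2-negative arrays. The log2 difference of Pfkfb4 was -1.15 ± 0.19, so that it fell 2.22-fold (adjusted p = 0.0374 in limma). It kept the call without ICN2-positive replicate 1 (-0.97, adjusted p = 0.0246) or replicate 2 (adjusted p = 0.0269). It lost it without ICN2-positive replicate 3 or when an ICN2-negative array was left out (adjusted p = 0.0941 to 0.138). It was read by 1 probe set.

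Pfkfb3, the form with the strongest kinase activity, read 8.42, 9.35 and 9.08 in ICN2-positive cells and 9.57, 9.90 and 9.85 in ICN2-negative cells. It was lower without overlap, at -0.83 ± 0.25 (adjusted p = 0.115), while its dimmer probe set differed by -0.23. Pfkfb2 differed by 0.066 ± 0.32, with arrays of each genotype spread over about the same range. Of the phosphofructokinase genes, Pfkl, the liver-type subunit, was higher without overlap at 10.81, 10.96 and 10.91 in ICN2-positive cells, against 10.72, 10.33 and 10.60 in ICN2-negative cells (0.34 ± 0.12, adjusted p = 0.138). The muscle-type Pfkm (0.042 ± 0.12) and the platelet-type Pfkp (-0.049 ± 0.23) overlapped between genotypes.

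Of the other enzymes of the upper path, none passed. Aldoa, the main aldolase, read 13.51 to 13.58 in ICN2-positive cells and 13.57 to 13.63 in ICN2-negative cells (-0.040 ± 0.060). Tpi1, triose phosphate isomerase, differed by 0.13 ± 0.07 (adjusted p = 0.281), higher without overlap. The brain-type aldolase gene Aldoc was dim, at 4.93, 5.33 and 5.26 in ICN2-positive cells and 5.76, 6.34 and 5.94 in ICN2-negative cells. It passed the filter through the ICN2-negative arrays and 1 ICN2-positive array, so its difference of -0.84 ± 0.19 (adjusted p = 0.0673) follows in part from the filter.

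In the lower path, Gapdh was read by array control probe sets. Its brightest, at the 3' end, read 14.04, 14.03 and 14.03 in ICN2-positive cells and 14.05, 14.01 and 14.05 in ICN2-negative cells, a difference of -0.0045 ± 0.057. These values sit near the top of the intensity range, where an array can lose sensitivity. The Gapdh probe set at the 3' end exceeded that at the 5' end by 0.73 in ICN2-positive replicate 1, by 0.64 and 0.66 in ICN2-positive replicates 2 and 3, and by 0.63 to 0.66 in ICN2-negative arrays. This gap grows where RNA is shorter or copied less fully, and its part in the other values was not tested.

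Pgk1, phosphoglycerate kinase, differed by 0.056 ± 0.060, and its dimmer probe sets by -0.090 and -0.082. Pgk1 and the kinase gene Pdk3 are the X-linked members on the array. Pgam1, phosphoglycerate mutase, read 12.23, 12.53 and 12.40 in ICN2-positive cells and 12.79, 12.89 and 12.85 in ICN2-negative cells. It was lower without overlap, at -0.46 ± 0.10 (1.38-fold, adjusted p = 0.0595). Pkm, the pyruvate kinase of most tissues other than liver and red cells, read 11.42, 12.18 and 11.75 in ICN2-positive cells and 12.32, 12.37 and 12.47 in ICN2-negative cells. It was also lower without overlap (-0.61 ± 0.20, adjusted p = 0.124). The muscle-type enolase gene Eno3 differed by -0.14 ± 0.17 with overlapping groups.

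At the exit of glycolysis, the lactate dehydrogenase subunit genes had unlike patterns. Ldha, the subunit that favours lactate formation, read 13.68, 13.62 and 13.61 in ICN2-positive cells and 13.48, 13.35 and 13.43 in ICN2-negative cells. It was higher without overlap, at 0.22 ± 0.07 (1.16-fold, adjusted p = 0.116 in limma). Ldhb, the subunit that favours pyruvate formation, read 8.24, 11.91 and 11.78 in ICN2-positive cells and 10.59, 10.89 and 10.82 in ICN2-negative cells. ICN2-positive replicate 1 lay below every ICN2-negative array and replicates 2 and 3 lay above every one. The fitted difference was -0.13 ± 1.01 (adjusted p = 0.946), and without replicate 1 it was 1.08 ± 0.12 (adjusted p = 0.0162). All 4 Ldhb probe sets showed this split, with 7.58 to 8.24 in replicate 1, and their differences were -0.13 to 0.17. No other member had ICN2-positive arrays on both sides of all ICN2-negative arrays by such a gap.

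Pyruvate dehydrogenase kinases keep pyruvate out of the mitochondria. Pdk1, the form most induced by hypoxia, read 12.07, 12.05 and 12.18 in ICN2-positive cells and 12.35, 12.56 and 12.50 in ICN2-negative cells. It was lower without overlap, at -0.37 ± 0.08 (adjusted p = 0.0686), and its 4 probe sets differed by -0.68 to -0.31. As the mean of these probe sets it passed (-0.45, adjusted p = 0.0428). Pdk2 read 6.67 in ICN2-positive replicate 1 but 7.80 and 7.86 in replicates 2 and 3, against 7.86 to 8.20 in ICN2-negative cells, and differed by -0.54 ± 0.34. Pdk3 differed by 0.042 ± 0.062.

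Of the pentose phosphate genes, none passed. Tkt, transketolase, read 13.96 to 13.99 in ICN2-positive cells and 13.91 to 13.98 in ICN2-negative cells (0.025 ± 0.059). Taldo1, transaldolase, differed by 0.063 ± 0.066 with overlapping groups. Pgd, phosphogluconate dehydrogenase, which makes NADPH, read 12.85, 12.90 and 12.89 in ICN2-positive cells and 13.07, 13.04 and 13.13 in ICN2-negative cells. It was lower without overlap, at -0.20 ± 0.06 (1.15-fold, adjusted p = 0.119), and its 4 probe sets differed by -0.21 to -0.17.

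Both hypoxia members were lower without overlap. Hif1a read 11.24, 11.47 and 11.57 in ICN2-positive cells and 11.62, 11.86 and 11.82 in ICN2-negative cells (-0.34 ± 0.12, adjusted p = 0.138). The groups came within 0.1 of each other, and the other 3 probe sets of Hif1a differed by -0.45 to -0.14, overlapping in 2 of the 3. Bnip3, a mitochondrial receptor for mitophagy induced by hypoxia, read 7.98, 9.72 and 9.45 in ICN2-positive cells and 10.57, 10.84 and 10.59 in ICN2-negative cells. Replicate 1 was the lowest, as for Hk3. The difference was -1.62 ± 0.46 (3.07-fold lower, adjusted p = 0.104 in limma) and -1.08 ± 0.13 without replicate 1 (adjusted p = 0.0213). Bnip3 has 1 probe set.

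**Figure D4:**
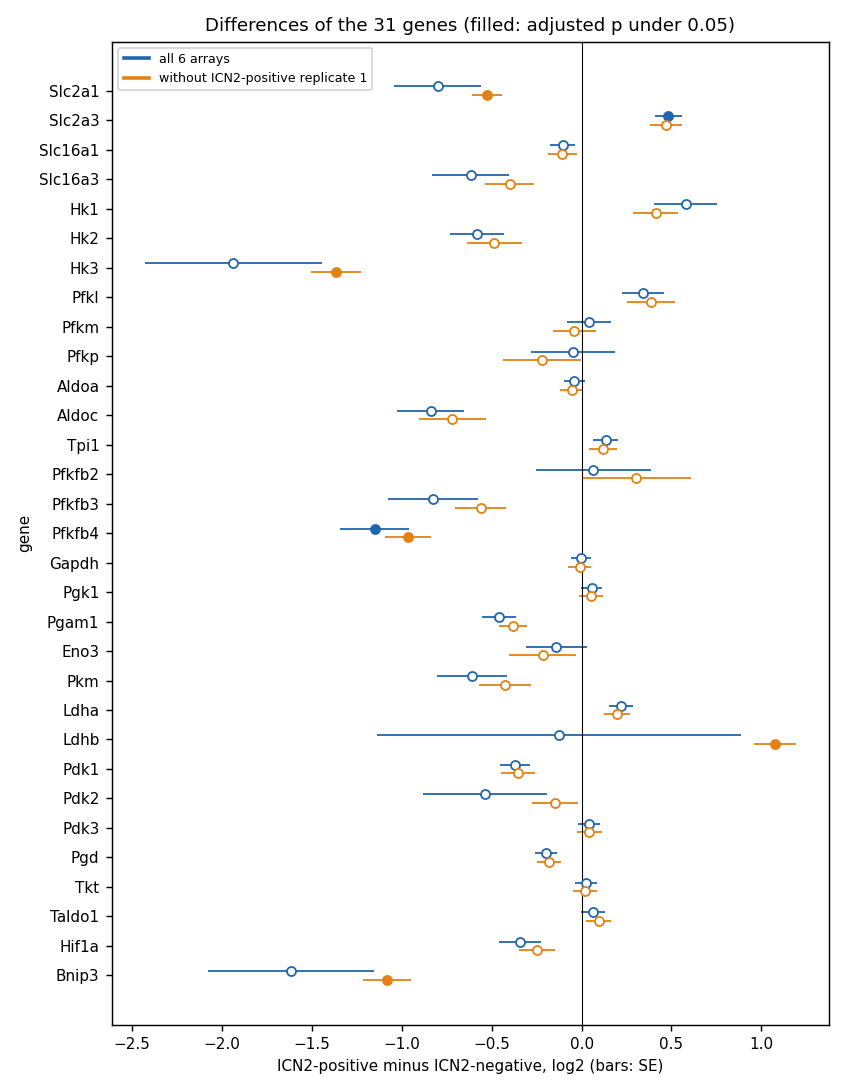
Difference in log2 intensity, ICN2-positive minus ICN2-negative, for the 31 tested genes (points, with the standard error as bars), with all 6 arrays (blue) and without ICN2-positive replicate 1 (orange). Filled points have an adjusted p under 0.05: Slc2a3 and Pfkfb4 with all arrays, and Slc2a1, Hk3, Pfkfb4, Ldhb and Bnip3 without replicate 1.

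At the level of single probe sets, 64 of 73 member probe sets were tested and 2 passed, 1 of Slc2a3 and that of Pfkfb4, against 3.14% of all probe sets of single genes. For 17 members more than 1 probe set was tested. In 4 of these the probe sets differed in sign, which were Gapdh, Pgk1, Slc16a1 and Ldhb, all with small fitted differences.

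Of 101 tested genes in 6 lists of neighbouring pathways, 2 rose, none fell and 99 did not pass, against the 4.35% of all genes called in limma. Both that rose, of 17 genes in the list of other glycolysis and glucose entry genes, were paralogs of members. Ldhc, the lactate dehydrogenase subunit known from testis, read 9.41, 9.40 and 8.84 in ICN2-positive cells and 7.37, 7.56 and 7.09 in ICN2-negative cells. It rose by 1.88 ± 0.21 (adjusted p = 0.0129), and the call was lost without ICN2-negative replicate 2 or 3 (adjusted p up to 0.0656). Slc16a7, a monocarboxylate transporter of high affinity, read 9.54, 9.63 and 9.71 in ICN2-positive cells and 8.18, 8.53 and 8.78 in ICN2-negative cells. It rose by 1.13 ± 0.16 (adjusted p = 0.0264) and lost the call without ICN2-positive replicate 2 or 3 or ICN2-negative replicate 2 (adjusted p up to 0.113).

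No gene passed in the other 5 lists in limma. At an unadjusted p under 0.05 there were 9 of 21 HIF pathway genes (42.9%) and 7 of 21 of gluconeogenesis and glycogen (33.3%). There were 3 of 12 other pentose phosphate genes (25%), 2 of 10 of pyruvate entry (20%) and 2 of 20 of the TCA cycle (10%). For comparison, 17 of the 31 members (54.8%) and 27.4% of all genes tested passed that threshold. For 21 genes of the HIF pathway and its targets the median was -0.18, with 7 lower and 2 higher without overlap. That is 42.9% in either direction, against 37.5% of all genes tested (16.9% lower and 20.6% higher). The growth factor gene Vegfa had a difference of -0.83 ± 0.16 (adjusted p = 0.0558), and Cited2, a gene for a transcriptional regulator, had -0.79 ± 0.17 (adjusted p = 0.0618). Without ICN2-positive replicate 1, Vegfa (-0.99, adjusted p = 0.0176), the prolyl hydroxylase gene Egln3 (-1.26, adjusted p = 0.0274) and Fbp1, which encodes the gluconeogenic fructose bisphosphatase (-1.67, adjusted p = 0.041), were called lower in limma. These were the 3 lower calls among the 101 genes of the 6 lists in that fit, against 3.08% of all genes. Ldhc and Slc16a7 were the 2 higher calls, against 2.91% of all genes. The counts in both directions lie near the background. For 21 genes of gluconeogenesis and glycogen the median was -0.12, with Phkb, a phosphorylase kinase subunit, at -0.63 ± 0.15 (adjusted p = 0.0764) and Fbp1 at -2.41 ± 0.67 (adjusted p = 0.099).

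Genes that lead pyruvate into mitochondria had a median of 0.070 over 10 genes. Of these, 3 (30%) were higher and none lower without overlap, against 20.6% and 16.9% of all genes tested. The pyruvate dehydrogenase phosphatase genes Pdp2 and Pdp1, which encode the enzymes that oppose the Pdk kinases, had differences of 0.54 ± 0.11 (adjusted p = 0.0574) for Pdp2 and 0.51 ± 0.15 (adjusted p = 0.109) for Pdp1. The 12 other pentose phosphate genes had a median of 0.085. The smallest p-values were those of the phosphoribosyl pyrophosphate synthesis genes Prpsap2 (0.30 ± 0.10, adjusted p = 0.122) and Prps2 (0.18 ± 0.07, adjusted p = 0.154). Tigar, which encodes a sugar bisphosphatase that favours the pentose phosphate pathway, had the difference of greatest size in that list, -1.77 ± 0.75 without overlap (adjusted p = 0.2), with 6.21 in ICN2-positive replicate 1. Rpe, the ribulose phosphate epimerase gene, was also lower without overlap, at -0.26 ± 0.10 (adjusted p = 0.158). The 20 TCA cycle genes had a median of 0.042. Me2, a mitochondrial malic enzyme, differed by 0.32 ± 0.08 (adjusted p = 0.0839) and Idh1, the cytosolic isocitrate dehydrogenase, by -0.90 ± 0.29 (adjusted p = 0.122).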

How the data were processed

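RNA of 6 sorted samples was amplified with an Ovation kit and hybridised to Affymetrix mouse arrays, per the labels' protocols. The authors deposited 1 intensity per probe set and array on a linear scale, made with RMA (background correction, quantile normalization, probe summary) per the submitters' processing notes; its version was not given in the sources used here. RMA equalises arrays (median log2 intensity 6.05 to 6.09), so a change in total RNA per cell would not be seen, and small differences of bright genes may be compressed. No detection calls or scanner files were used here, and the number of arrays limits the precision.

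Log2 was taken here. Probe sets with 1 gene symbol (34958 of 45101) were used, 1 per gene, and genes above the 40th percentile on at least 3 of 6 arrays were tested with limma 3.58.1 in R 4.3.3 (lmFit, eBayes, no covariate, Benjamini-Hochberg over all genes). The fit was tested on simulated data. Every member is named; from each other list, genes that passed or else the 2 with the smallest p. Vegfa, Egln3 and Fbp1 without ICN2-positive replicate 1, and Tigar and Rpe, were named after their values were seen. Members and lists were chosen with earlier results of these data known. Alternatives covered filter, normalization, variance model, array weights, probe set choice, replicate number and each array left out. Promoters came from RefSeq on GRCm38.p6.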

Additional observations from a re-analysis of the deposited data

How the results depend on the processing

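The 558 calls over all genes became 846 with a trend in eBayes, 3261 with array weights, 1596 at an adjusted p of 0.1 and 99 to 768 with 1 array left out. The 2 member calls, of 31 tested, became 6 with the trend, where 6.59% of all genes were called. They became 16 with array weights (4 higher, 12 lower), where 25.4% of all genes were called. At an adjusted p of 0.1 they became 7 of 31, where 1596 of 12835 genes were called. Without probe sets marked _x_ or _s_, 1 of 29 members tested was called, against 4.57% of all genes. Slc2a3 and Aldoa were not tested in that fit. With 1 array left out, 0 to 5 members were called, against 0.771% to 5.98% of all genes. At an unadjusted p under 0.05, 9 to 17 members passed in those fits (29.0% to 54.8%). The matching share of all genes was taken only with all 6 arrays, where it was 27.4%. The 2 calls in other lists became 8, 27 and 5 with the trend, array weights and the mean of probe sets, and 0 to 5 with 1 array left out. With the mean of probe sets, 5.19% of all genes were called. The members' median was -0.22 to -0.089 with 1 array left out and negative under the 16 alternatives run for it. The cause of these shifts was not tested.

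Same-numbered arrays of the genotypes deviated together only weakly (correlations of 0.178, 0.135 and 0.0933). The other combinations gave -0.216 to 0.163, the highest between ICN2-positive replicate 3 and ICN2-negative replicate 2. With 3 arrays per genotype these correlations cannot show whether the numbers pair the samples. With the replicate number as a block, 341 genes (2.66%) and 0 members passed in limma (Pfkfb4 at an adjusted p of 0.072, Slc2a3 at 0.0758), and 3 genes of other lists did. In that fit 15 members (48.4%) had an unadjusted p under 0.05, and the share of all genes at that threshold was not taken.

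Signs turned for genes that were not called. Pgk1 was -0.039 and Ldhb 0.013 with the mean of probe sets, and Ldhb was 0.88 with array weights. With 1 array left out, Ldhb ranged from -0.76 to 1.08, Pfkm from -0.042 to 0.16, Pfkp from -0.23 to 0.11, Pfkfb2 from -0.18 to 0.30, Eno3 from -0.26 to 0.026 and Gapdh from -0.0168 to 0.0018. With no measured background, dim genes such as Aldoc and Eno2 have no known detection limit.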
